A study of Mus musculus with 11 samples.

Results

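The genes described here encode the proteins of the cytosolic ribosome, with a few relatives that carry the same kind of symbol. They were taken by name from the array annotation: symbols that begin with Rpl or Rps and a digit, and Rplp0, Rplp1, Rplp2 and Rpsa, leaving out the Rps6k kinases and pseudogenes. Of 65 such genes, 56 had a probe detected above background (detection p under 0.01) on at least 2 of the 11 arrays, among 8952 genes tested in all. The 56 comprise 20 proteins of the small (40S) subunit, 27 of the large (60S) subunit, the 3 proteins of the 60S stalk, 5 copies or relatives of standard genes (Rpl22l1, Rpl36al, Rpl7l1, Rps27l, Rps4l), and Rps19bp1, which carries a ribosomal symbol but encodes a nucleolar protein that binds the product of Rps19. The 9 without a passing probe were Rpl6, Rpl14, Rpl17, Rps20, Rps23, Rpsa, Rpl3l, Rpl39l and Rps23rg1, and no level is given for them.

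All groups were brain microglia of newborn C57BL/6J mice kept in primary culture, hybridised to Illumina mouse arrays on 2 slides. Untreated cells, for which the labels give no time, were hybridised to 3 arrays. IL-4, a cytokine of alternative macrophage activation, was given to 3 arrays' cells for 48 h (100 U/ml), and TGFb, which restrains microglial activation, to those of another 3 for 48 h (20 ng/ml). The last 2 arrays held cells under a classical proinflammatory stimulus for 16 h, LPS (100 ng/ml) together with IFNg (20 ng/ml), written LPS/IFNg. The LPS/IFNg cells were harvested at another time than the other stimulated cells, so stimulus and time cannot be told apart in any contrast with them. The labels name no slide, and slides were told apart by the number that begins each array's identifier. Read so, all 3 untreated arrays lay on slide 2, whereas slide 1 held replicates 1 and 2 of IL-4 and TGFb and replicate 1 of LPS/IFNg. The labels do not say whether replicates came from separate cultures or animals, so p-values speak of array-to-array spread, which may be technical.

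Each ribosome carries every standard ribosomal protein in a fixed proportion, and cells make these proteins in step with each other and with ribosomal RNA. Their mRNAs are among the most abundant of most cells, and many begin with a C followed by a stretch of pyrimidines, the 5′ terminal oligopyrimidine (TOP) tract, through which the kinase mTOR and the RNA-binding protein Larp1 control their translation. Several of the genes, such as Rplp0, Rpl13a, Rpl32 and Rpl19, are in common use as reference genes. The arrays measured mRNA, and neither translation nor protein.

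The members were bright on these arrays. The measured probe of 35 of the 56 genes (62.5%) lay in the top 1% of all 45281 probes by mean signal, and member probes made up 39 of the 453 probes there; this describes probe signal, which depends on the probe as well as on the mRNA. On each array, the members' probes held between 4.43% and 5.37% of the background-corrected signal of all passing probes in the 9 untreated, IL-4 and TGFb arrays, against 3.19% and 3.14% on the LPS/IFNg arrays. That share is a ratio within an array and does not depend on scaling between arrays. The LPS/IFNg arrays also had fewer detected probes (12427 and 12617) than the others (12991 to 14200); the part of this in the differences below was not tested. Replicate arrays correlated at 0.945 to 0.987 over all genes and at 0.973 or more over the members. The lowest values came from IL-4 replicate 1, where 81 genes, Rpl24 and Rpl7a among them, exceeded every other array by 1 log2 unit or more.

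With LPS/IFNg, mRNA levels of most ribosomal protein genes fell. Of the 56 members, 40 fell, 2 rose and 14 did not pass the test against untreated cells (limma, Benjamini-Hochberg adjusted p under 0.05 over all genes). Of all genes tested, 23.5% were called lower and 17.5% higher (41% in either direction). Within groups, members varied less than all genes (median SD 0.13 against 0.22 untreated, 0.085 against 0.17 with LPS/IFNg). An equal difference therefore tends to pass more readily in a member. The median log2 difference of the members was -0.73 (25th to 75th percentile -0.87 to -0.43), a level of 60.1% of that in untreated cells, against a median of -0.07 over all genes. The falls took in both subunits: 17 of 20 proteins of the 40S subunit (median -0.74), 20 of 27 of the 60S subunit (median -0.75) and 2 of 3 of the stalk (median -0.68). None of the 50 standard genes rose. Among the other 6, 1 fell and 2 rose. In 44 members both LPS/IFNg arrays lay below all 9 other arrays, which held for 25.3% of all genes, and in 3 members both lay above, which held for 19.4%. In whole-culture RNA, less of an mRNA per cell and fewer cells that carry it cannot be told apart.

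**Figure D1:**
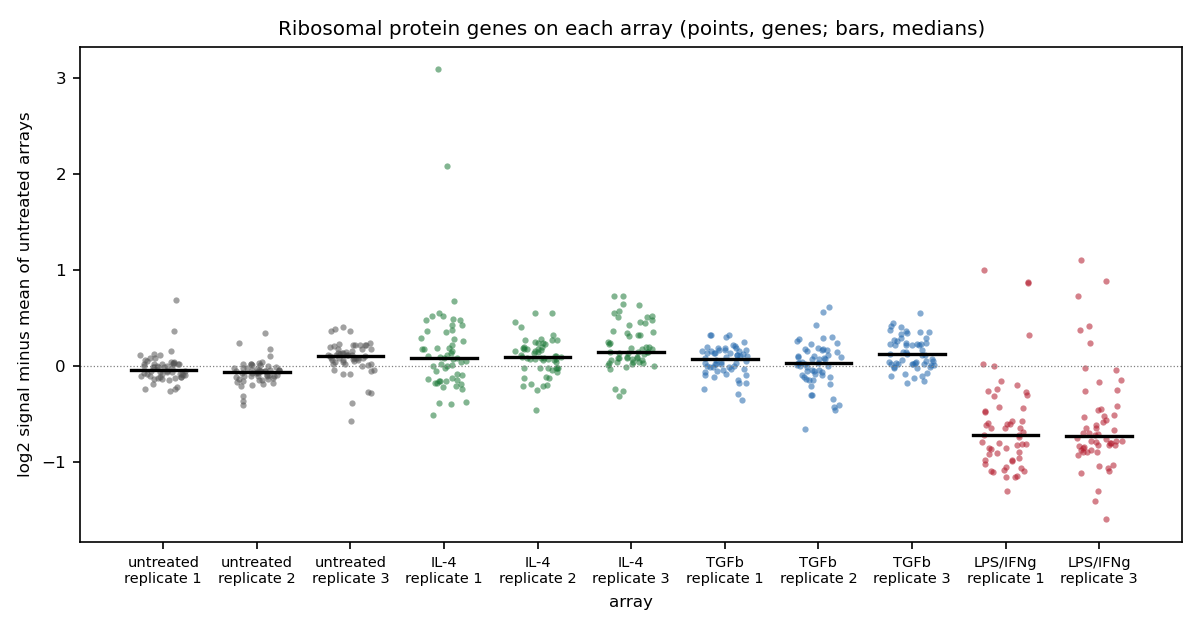
Each point is 1 of the 56 ribosomal protein genes on 1 array, as its log2 signal minus its mean over the 3 untreated arrays, and each bar is the array's median. The medians of the 9 untreated, IL-4 and TGFb arrays lie between -0.06 and 0.15, and those of the LPS/IFNg arrays lie at -0.71 and -0.73; the highest 2 points of IL-4 replicate 1 are Rpl24 and Rpl7a.

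In the 40S subunit, Rps19, which acts in the maturation of the small subunit's RNA and is mutated in Diamond-Blackfan anaemia in humans, had log2 signals of 13.70, 13.64 and 13.70 on the untreated arrays and 12.54 and 12.28 on the LPS/IFNg arrays. The IL-4 arrays (13.50, 13.88 and 13.93) and the TGFb arrays (13.70, 13.57 and 13.73) lay on both sides of the untreated values. The fall with LPS/IFNg was 1.27 on the log2 scale (SE 0.17, adjusted p 0.000193), to 41.5% of the untreated level. Rps4x, the X-linked gene of ribosomal protein S4, read 13.67, 13.60 and 13.67 in untreated cells and 12.56 and 12.35 with LPS/IFNg. Both LPS/IFNg arrays lay below every other array, and the difference was -1.19 (SE 0.15, adjusted p 0.000101). Rps16, a protein near the decoding region of the small subunit, read 12.63, 12.67 and 12.91 in untreated cells against 11.65 and 11.62 with LPS/IFNg. The groups did not overlap, and the difference was -1.10 (SE 0.16, adjusted p 0.000336).

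The 40S genes that did not pass the test against untreated cells were Rps24, Rps15a and Rps3a1. Rps3a1 had a difference as large as many that passed (-0.78, SE 0.30, adjusted p 0.056), with a wider spread: 9.06, 8.82 and 9.53 in untreated cells and 8.15 and 8.55 with LPS/IFNg. Rps15a lay between 6.01 and 6.74 in untreated cells and at 6.12 and 6.37 with LPS/IFNg, so the groups overlapped (difference -0.14, SE 0.28, adjusted p 0.716). Rps24, another small-subunit protein mutated in Diamond-Blackfan anaemia, read 14.03, 13.84 and 13.87 in untreated cells and 13.94 and 13.88 with LPS/IFNg on its brightest probe. This difference was -0.0048 (SE 0.15, adjusted p 0.983), and other probes annotated to the gene behaved differently.

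In the 60S subunit, Rpl22, an RNA-binding protein of the large subunit, gave the largest difference of any member. It read 9.58, 9.56 and 9.94 in untreated cells and 8.60 and 8.10 with LPS/IFNg. Both LPS/IFNg arrays lay below every other array, and the fall was 1.34 (SE 0.20, adjusted p 0.000429), to 39.4% of the untreated level. Rpl32 read 12.98, 13.41 and 13.32 against 12.08 and 12.18 (difference -1.11, SE 0.17, adjusted p 0.000476). Rpl10a, known in mice and other animals as the protein tagged to capture ribosomes of chosen cell types, read 13.49, 13.57 and 13.63 against 12.41 and 12.53 (difference -1.09, SE 0.16, adjusted p 0.000379). Rpl36a (-1.08), Rpl28 (-1.07) and Rpl26 (-1.02) also fell to about the same extent. A second probe of Rpl28 did not share the fall (difference -0.017, adjusted p 0.966 over probes). It was dim, at a mean of 5.60 in untreated cells beside 13.11 for the main probe. The lowest detected values on the untreated arrays were 5.06 to 5.08.

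Among the 7 genes of the 60S subunit that did not pass, 6 had differences below 0. Rpl41, which encodes a very short protein of the large subunit, read 14.59, 14.50 and 14.61 in untreated cells and 14.26 and 14.40 with LPS/IFNg. Both of these lay below the untreated arrays, but the difference of -0.24 (SE 0.15, adjusted p 0.223) did not pass, and with cyclic loess normalization it was 0.01. Rpl19, Rpl21, Rpl27, Rpl30 and Rpl7a had differences of -0.25, -0.54, -0.20, -0.42 and -0.05. Rpl24 was the exception, at 7.18, 6.73 and 6.54 in untreated cells and 7.69 and 7.92 with LPS/IFNg. Its difference of 0.99 had an SE of 0.74 (adjusted p 0.318), and IL-4 replicate 1, which enters that error, stood at 9.90 beside 6.80 and 6.81 in the other IL-4 arrays.

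The stalk, made of Rplp0 with dimers of Rplp1 and Rplp2, recruits the translation factors to the ribosome. Rplp1 read 14.36, 14.20 and 14.46 in untreated cells and 13.70 and 13.62 with LPS/IFNg (difference -0.68, SE 0.14, adjusted p 0.00317). Rplp2 read 13.98, 13.72 and 13.77 against 13.03 and 12.99 (difference -0.81, SE 0.16, adjusted p 0.00268). Both genes thus had LPS/IFNg arrays below all untreated ones. Rplp0 read 7.52, 7.12 and 7.93 against 7.27 and 6.996, groups that overlapped, and its difference of -0.39 (SE 0.25) did not pass (adjusted p 0.224). Neither the Rplp1 call nor the Rplp2 call held with median scaling (adjusted p 0.11 and 0.0601) or with cyclic loess (0.0662 and 0.0742).

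**Figure D2:**
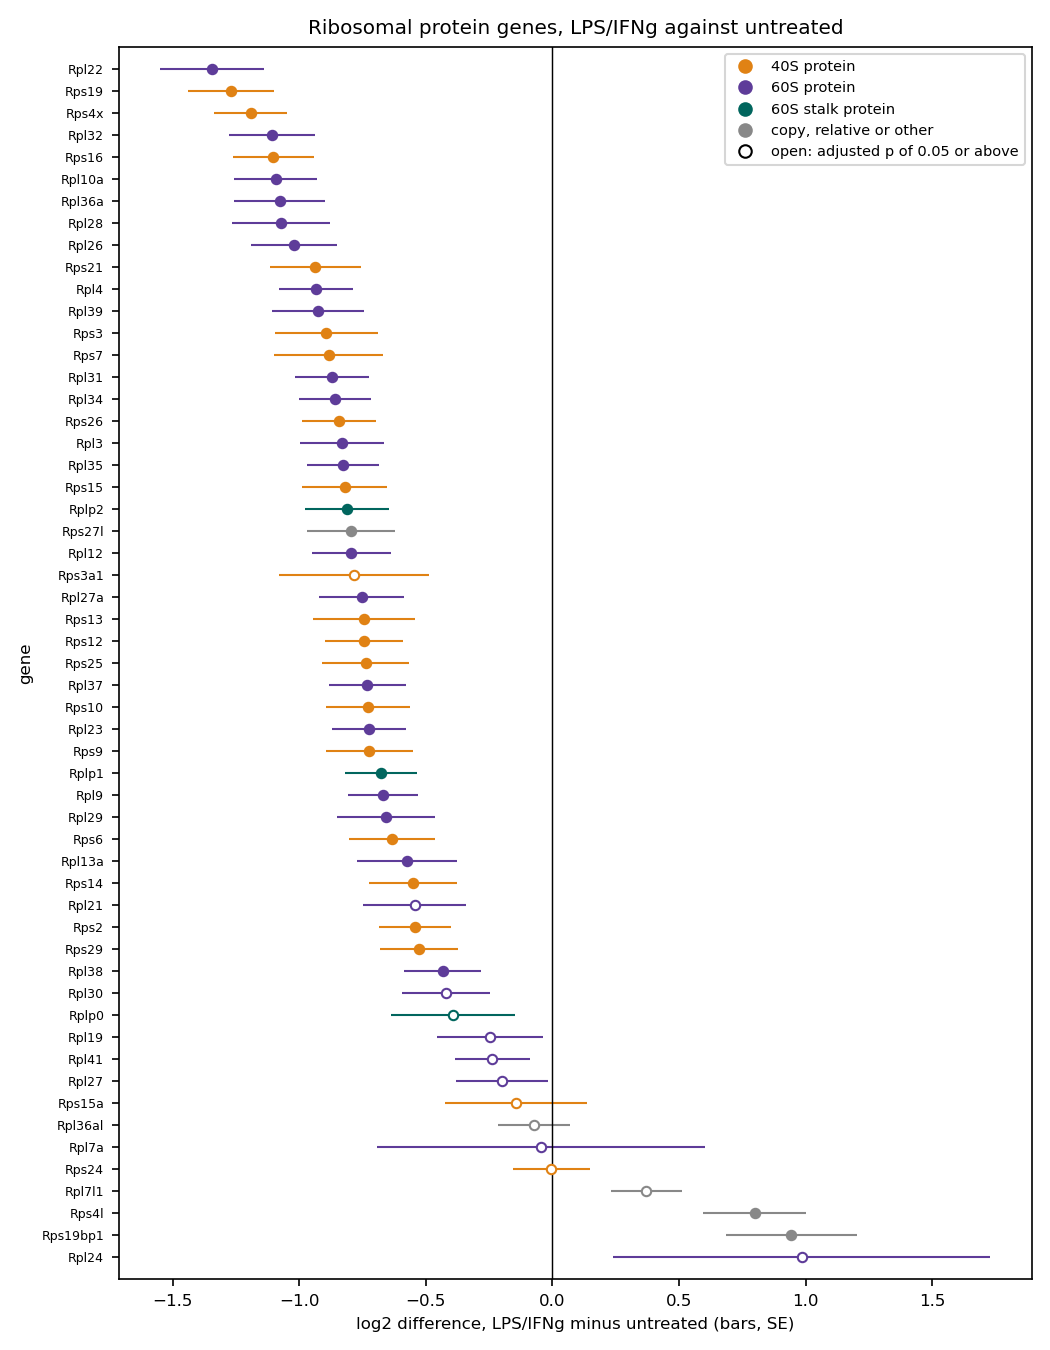
For each gene but Rpl22l1, which was not detected with LPS/IFNg, the point gives the log2 difference of LPS/IFNg minus untreated and the bar its SE, coloured by ribosomal subunit, with open points for genes that did not pass the test. The 42 genes that passed are 40 at the low end, led by Rpl22 at -1.34, and Rps4l and Rps19bp1 on the other side of 0.

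Copies and relatives of standard genes did not follow one direction. Rps4l, a gene similar to Rps4x, read 7.49, 7.57 and 7.65 in untreated cells and 8.44 and 8.30 with LPS/IFNg. It rose by 0.80 (SE 0.20, adjusted p 0.00926), while Rps4x fell. The log2 ratio of Rps4l to Rps4x within an array changed by 1.99, and the groups did not overlap (two-sided exact permutation test, p = 0.2, the smallest that 2 arrays against 3 allow). With IL-4 the same ratio changed by 0.34 (exact permutation p = 0.3) and with TGFb by -0.19 (exact permutation p = 0.4). The rise of Rps4l did not pass with median scaling (0.53, adjusted p 0.102), with no normalization between arrays (0.47, adjusted p 0.158) or without LPS/IFNg replicate 1 (0.73, adjusted p 0.0666).

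Rpl36a is X-linked, and Rpl36al is its close relative on an autosome. Rpl36a read 11.80, 11.52 and 11.73 in untreated cells and 10.38 and 10.83 with LPS/IFNg, a fall of 1.08 (SE 0.18, adjusted p 0.000809). Rpl36al read 11.66, 11.69 and 11.77 against 11.71 and 11.56, so that the groups overlapped (difference -0.07, SE 0.14, adjusted p 0.715); with cyclic loess the difference was 0.23 and with median scaling 0.060. The log2 ratio of Rpl36al to Rpl36a changed by 1.00 with LPS/IFNg (exact permutation p = 0.2), by 0.15 with IL-4 and by -0.19 with TGFb (exact permutation p = 0.2 for each of the latter, for which the smallest possible is 0.1). Transcripts of closely similar genes can bind the same probe, and the probes' sequences were not compared here.

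Rps27l, a relative of Rps27 known as a p53 target in humans, was the member of this class that fell: 12.66, 12.53 and 12.61 in untreated cells and 11.78 and 11.83 with LPS/IFNg (difference -0.80, SE 0.17, adjusted p 0.00413; adjusted p 0.0508 with cyclic loess). Rps27 itself was not among the genes matched. Rpl7l1, related to Rpl7 and known in yeast as an assembly factor of the large subunit, read 9.34, 9.39 and 9.59 against 9.76 and 9.86. Its difference of 0.37 (SE 0.14) just missed the threshold (adjusted p 0.0577) and passed in 6 of the alternatives, cyclic loess and the authors' table among them. Rpl22l1, the relative of Rpl22, was detected on 1 of 3 untreated, 3 of 3 IL-4, 2 of 3 TGFb and neither LPS/IFNg array, and no fold is given for it. Rps19bp1 read 6.28, 6.08 and 6.35 in untreated cells and 7.23 and 7.12 with LPS/IFNg. It rose by 0.94 (SE 0.26, adjusted p 0.0139), but the call was lost with median scaling (0.58, adjusted p 0.145), with no normalization between arrays (0.52, adjusted p 0.202) and without either LPS/IFNg array (0.89 without replicate 1, adjusted p 0.08, and 1.00 without replicate 3, adjusted p 0.0556).

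For 15 members more than 1 probe passed, 35 probes in all, and the results above use the brightest of each gene. The probes of 12 of these genes shared a sign with LPS/IFNg, 11 of them below 0. The 3 genes with probes of both signs were Rpl38, Rps13 and Rps24. In Rps13, a 40S protein, the brightest probe fell by 0.74 and the other lay at 0.43 (adjusted p 0.28 over probes). That other probe was dim (mean 5.42 in untreated cells, beside 12.42) and detected on 2 of 3 untreated arrays. In Rpl38, a 60S protein known in mice for its part in translating Hox mRNAs, the brightest fell by 0.43 and the other lay at 0.21 (adjusted p 0.52 over probes). Its means in untreated cells were 14.14 on the brightest probe and 6.00 on the other. In Rps24, both dimmer probes rose with LPS/IFNg by about 1 log2 unit while the brightest stayed at -0.0048.

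**Figure D3:**
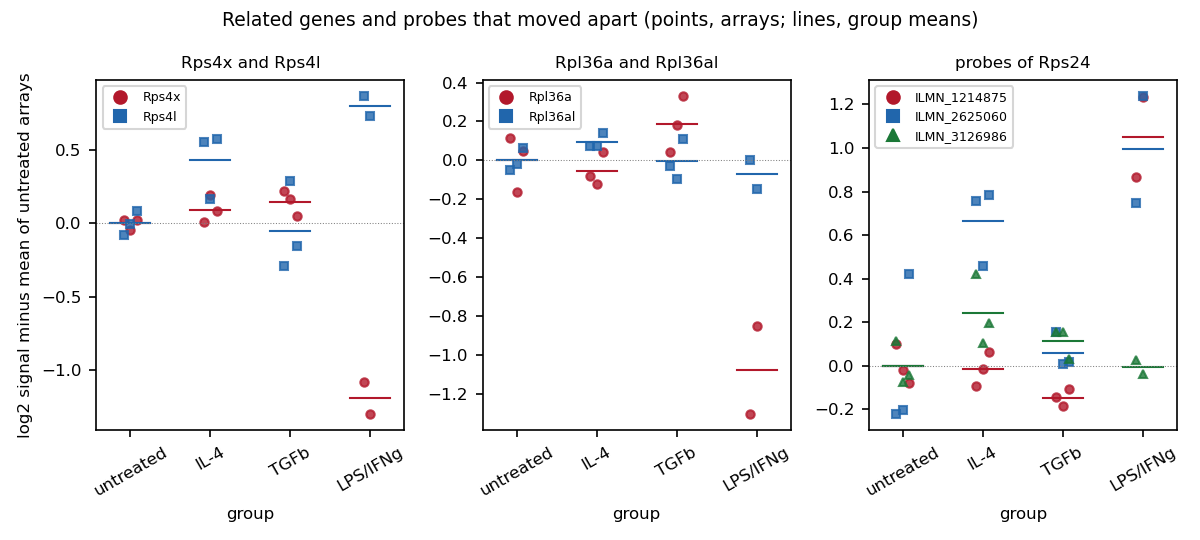
Log2 signal minus the untreated mean of the same probe, by group, with a point per array and a line at each group mean, for Rps4x with Rps4l, Rpl36a with Rpl36al, and the 3 probes of Rps24. With LPS/IFNg, Rps4l lies 0.80 above and Rps4x 1.19 below the untreated mean (log2 differences 0.80 and -1.19), Rpl36a fell by 1.08 beside -0.07 for Rpl36al, and the Rps24 probes stand at 1.05, 0.99 and -0.0048.

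Against the other stimuli, too, most members were lower. LPS/IFNg arrays were lower than IL-4 arrays in 43 members and higher in 0 (over all genes, 23.5% were called lower and 16.4% higher), with a median of -0.84. They were lower than TGFb arrays in 42 members and higher in 3 (over all genes, 24.2% lower and 17.8% higher), with a median of -0.79. These comparisons share the LPS/IFNg arrays with the one against untreated cells. Rpl22 led both, at -1.59 against IL-4 (SE 0.20, adjusted p 0.000157) and -1.38 against TGFb (adjusted p 0.000305). Against IL-4 it was followed by Rps19 (-1.36) and Rpl4 (-1.32), a protein that lines the exit tunnel of the large subunit, whose values were 9.78, 9.52 and 9.75 with IL-4 and 8.32 and 8.40 with LPS/IFNg. Against TGFb it was followed by Rps16 (-1.34) and Rps4x (-1.34), and the genes called higher were Rps19bp1 (1.09), Rps4l (0.85) and Rpl7l1 (0.49). All 3 stalk genes were lower with LPS/IFNg than with IL-4, Rplp0 included.

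The lower values were also present within each slide. On slide 2, where the sole LPS/IFNg array met all 3 untreated arrays, the median difference of the members was -0.73 (all genes, -0.09), and 47 of 56 members lay below every untreated array, as did 42.8% of all genes. Slide 1 held no untreated array. There the LPS/IFNg array lay below both IL-4 arrays in 51 members (44.9% of all genes) with a median of -0.78, and below both TGFb arrays in 50 (46.2% of all genes) with a median of -0.80. With slide as a fixed term, the members' median against untreated cells was -0.68. In that fit 37 members fell and 2 rose, and the share over all genes is not given here.

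No member passed the same test with IL-4 or with TGFb. Against untreated cells, 0 of 56 members were called with IL-4 (1.28% of all genes were called) and 0 of 56 with TGFb (0.983% of all genes). An unadjusted limma p under 0.05 was reached with IL-4 by 7 members, 6 of them higher. Over all 8952 genes 1263 reached it, 642 of them higher. With TGFb 1 member reached it, beside 986 of all genes. The members' median differences were 0.13 for IL-4 and 0.07 for TGFb, with 11 and 18 of the 56 members below 0, beside 48.6% of all genes in either comparison. The members' median on single arrays varied within groups with an SD of 0.078. The groups did not overlap in 13 members that were higher with IL-4, which held for 10.1% of all genes. Between IL-4 and TGFb no member passed either (0 called by limma, against 8.58% of all genes). At an unadjusted limma p under 0.05 there were 3 members, beside 1976 of all 8952 genes. All of the stimuli were set against the same untreated arrays.

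The member nearest to the threshold with IL-4 was Rpl12, a 60S protein at the base of the stalk. It read 12.30, 12.37 and 12.39 in untreated cells, 12.83, 12.81 and 12.99 with IL-4 and 12.49, 12.63 and 12.73 with TGFb. All IL-4 arrays lay above all untreated ones, with a difference of 0.52 (SE 0.14, adjusted p 0.107), and with LPS/IFNg the gene read 11.40 and 11.71. In the authors' table, which is adjusted for slide, the same test called Rpl12 (0.65, adjusted p 0.00116), Rpl13a (0.61, 0.0284), Rpl4 (0.40, 0.0168), Rps26 (0.38, 0.0273) and Rps2 (0.31, 0.0493) higher with IL-4, and Rpl12 (0.40, adjusted p 0.0123) higher with TGFb. Over all genes that table gave 406 calls with IL-4 and 289 with TGFb (115 and 88 as reported). The test took no account of the slide shifts already removed, and all untreated arrays lay on slide 2, so the spread may be understated there. With TGFb the lowest unadjusted p was that of Rpl21, at 0.47 (SE 0.18, adjusted p 0.339). Rpl24 had the largest IL-4 difference (1.02, SE 0.67, adjusted p 0.55), with replicate 1 at 9.90 and the other IL-4 arrays inside the untreated range.

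Of the members that serve as reference genes, 2 of 4 fell with LPS/IFNg, where 23.5% of all genes fell. Rpl32 fell by 1.11, as above. Rpl13a read 9.31, 9.38 and 9.89 in untreated cells, 10.05, 10.08 and 10.18 with IL-4, and 8.94 and 8.97 with LPS/IFNg; it fell with LPS/IFNg by 0.57 (SE 0.20, adjusted p 0.0386), a call close to the threshold. It was lost with slide as a fixed term (-0.49, adjusted p 0.0973), with the 2 groups alone (-0.57, adjusted p 0.0857), on slide 2 only, and without any 1 of 6 arrays: untreated replicate 3 (-0.39, adjusted p 0.114), either LPS/IFNg array (adjusted p 0.139 and 0.123), IL-4 replicate 2 or 3 (0.0513 and 0.0521) or TGFb replicate 2 (0.0511). Rpl19 read 10.98, 10.61 and 11.34 against 10.74 and 10.72, which overlapped (difference -0.25, SE 0.21, adjusted p 0.375), and Rplp0 did not pass either. Of 6 reference genes outside the ribosome, 2 passed (33.3%, against 41% of all genes). Gapdh rose by 0.72 (SE 0.21, adjusted p 0.0199) and Hprt fell by 0.87 (SE 0.22, adjusted p 0.00941), and Actb, B2m, Tbp and Ppia did not pass (0.23, 0.28, 0.15 and -0.25).

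Genes whose products assemble ribosomes, without being part of them, were read beside the members. Of 65 tested genes of ribosome biogenesis, 17 rose (26.2%, against 17.5% of all genes) and 2 fell (3.08%, against 23.5%) with LPS/IFNg, with a median of 0.30 against -0.07 over all genes. The largest rises were Noc4l (1.86, SE 0.19, adjusted p 2.93e-05), a factor of small-subunit export and processing, and Wdr43 (1.28, SE 0.15, adjusted p 8.87e-05), a nucleolar protein of the small-subunit processome. The genes that fell were Npm1, nucleophosmin (-0.70, adjusted p 0.00563), and Imp3 (-0.60, adjusted p 0.00967). With no normalization between arrays, 9 genes of the list rose, 3 fell and the median was 0.0022. Over all 8952 genes 908 rose, 2487 fell and the median was -0.31. With median scaling 10 genes of the list rose, 1 fell and the median was 0.06. Over all genes 1011 rose, 2322 fell and the median was -0.25, so the list stayed above all genes in both settings. With IL-4 the list lay above 0 as well, in 57 of 65 genes (4603 of all 8952), with a median of 0.25 (0.01 over all genes). In the list 1 gene was called, Wdr46 (0.80, adjusted p 0.0443), where 1.28% of all genes were called. An unadjusted limma p under 0.05 was reached by 16 of its genes, all of them higher. Over all 8952 genes 1263 reached it, 642 of them higher. With TGFb the list's median was 0.13 and 0 of its genes were called (0.983% of all genes). It had 5 genes at an unadjusted limma p under 0.05, 4 of them higher, beside 986 of all 8952 genes, 508 of them higher. Between LPS/IFNg and IL-4 the list's median was 0.027 (-0.10 over all genes). There 12 genes were higher (18.5%, close to 16.4% of all genes) and 7 lower (10.8%, against 23.5%).

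Of 13 tested genes whose mRNAs are also known as TOP mRNAs but encode translation factors and other proteins, 5 fell (38.5%, against 23.5% of all genes) and 0 rose (17.5% of all genes) with LPS/IFNg, with a median of -0.47. An unadjusted limma p under 0.05 was reached by 8 of these genes, 1 of them higher. Over all 8952 genes 4394 reached it, 1893 of them higher. The falls were led by Eif3f, a subunit of an initiation factor (-1.01, SE 0.15, adjusted p 0.000301), and Eef1b2, a subunit of the elongation factor that reloads Eef1a (-0.86, SE 0.21, adjusted p 0.0075). Of 16 tested regulators of TOP mRNA translation, 3 rose (18.8%) and 4 fell (25%), shares close to those of all genes (17.5% and 23.5%). Larp1 rose by 1.21 (SE 0.27, adjusted p 0.00476) and Mtor by 0.74 (SE 0.17, adjusted p 0.00511). Pdcd4, an inhibitor of the helicase Eif4a, fell by 2.57 (SE 0.20, adjusted p 5.05e-06), and Mknk2, a kinase of the cap-binding protein, fell by 1.74 (SE 0.18, adjusted p 3.14e-05).

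**Figure D4:**
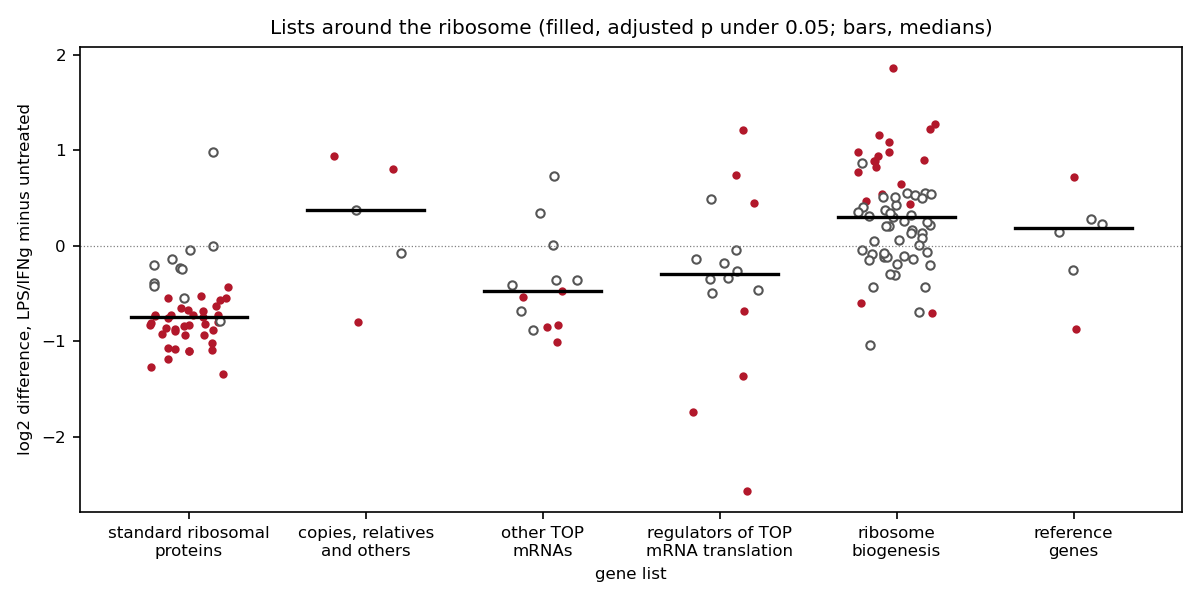
Log2 difference of LPS/IFNg minus untreated for each tested gene of 6 lists (without Rpl22l1, not detected with LPS/IFNg), filled where the adjusted p was under 0.05, with a bar at each list's median. The 50 standard ribosomal protein genes (median -0.74) and the 13 other TOP mRNA genes (median -0.47) lie mostly below 0, whereas the 65 ribosome biogenesis genes (median 0.30) lie mostly above it.

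Sequences around the transcription starts were read for the members, since the group moved together and a pyrimidine tract at the start is its known shared feature. RefSeq starts (mouse build GRCm38.p6) were found for 47 of the 56 members, and the 20 bases before and 20 from the start were searched on the gene's strand for a run of at least 7 bases that were all C or T. Such a run was present in 28 of 47 members (59.6%), against 27.5% of 27025 genes with a RefSeq start, 6 of 9 other TOP mRNA genes and 15 of 70 ribosome biogenesis genes (21.4%). Searched on the opposite strand, 5 of the 47 members (10.6%), 4 of the 9 other TOP mRNA genes (44.4%) and 29.7% of all genes had one. Of the 34 members that fell with LPS/IFNg and had a start, 22 held a run (64.7%), and of the 13 others, 6 did (46.2%). Annotated starts can lie some bases from those used in microglia, so a run is a description of these letters only. The windows below show 3 members that fell and hold a long run near the start, given in capitals, then 3 of the members discussed above that hold none of that length, and Rpl7a, which holds one and did not pass the test. They are, in order, chr7:109519175-109519214 (plus strand), chr2:39005112-39005151 (minus), chr7:141447631-141447670 (plus), chrX:102189372-102189411 (minus), chr7:28350669-28350708 (plus), chr15:80264287-80264326 (minus) and chr2:26910787-26910826 (plus).
Rpl27a: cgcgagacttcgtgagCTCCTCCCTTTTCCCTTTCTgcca
Rpl35: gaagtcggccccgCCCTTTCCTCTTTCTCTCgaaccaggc
Rplp2: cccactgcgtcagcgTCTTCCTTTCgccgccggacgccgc
Rps4x: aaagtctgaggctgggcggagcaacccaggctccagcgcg
Rps16: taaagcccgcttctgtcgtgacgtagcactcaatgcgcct
Rps19bp1: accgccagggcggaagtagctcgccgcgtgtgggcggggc
Rpl7a: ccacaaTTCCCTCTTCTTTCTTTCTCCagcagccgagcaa

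The run of Rpl27a spans 20 bases across the start, that of Rpl35 18 bases and that of Rplp2 10 bases. These genes had log2 differences of -0.75, -0.83 and -0.81 with LPS/IFNg. Rps4x and Rps16, whose longest runs were 4 and 5 bases, had differences of -1.19 and -1.10. Rps19bp1, with a longest run of 3 bases, rose by 0.94. Rpl7a, with a run of 21 bases, had a difference of -0.05 with an SE of 0.65.

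The size of the fall depended on how the arrays were brought to a common scale. With quantile normalization the median of all genes moved by -0.07 with LPS/IFNg and that of the members by -0.73, so the members lay 0.66 below all genes (difference -0.66). With median scaling the median of all genes was -0.25 and that of the members -0.58, and with no normalization between arrays these were -0.31 and -0.64. In both cases the members lay at -0.33 relative to all genes. With cyclic loess the member median was -0.42 and the value relative to all genes -0.37. Learning the quantile map from all probes but those of the members gave -0.80, and the authors' table -0.67. Members below 0 numbered 51 of 56 as reported (53.9% of all genes) and 48 to 51 under these settings. The share of all genes below 0 was not counted under these settings, where the median of all genes was as low as -0.31. Among detected members, 3 had differences on the other side of 0 under some of these normalizations, and none of them had passed the test as reported. With cyclic loess the differences of Rps24 (0.40), Rpl36al (0.23) and Rpl41 (0.01) lay above 0, with median scaling those of Rps24 (0.25) and Rpl36al (0.060), and with no normalization between arrays that of Rps24 (0.19).

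The number of members called moved with it. With LPS/IFNg, 23 fell and 0 rose with median scaling, 27 fell and 0 rose with no normalization between arrays, and 24 fell and 3 rose with cyclic loess. All calls over all genes were split into 1568 higher and 2106 lower as reported (57.3% lower), 1011 and 2322 with median scaling (69.7% lower), 908 and 2487 with no normalization between arrays (73.3% lower), and 1661 and 1995 with cyclic loess (54.6% lower). Of the 42 members called as reported, 20 were called under all 6 other normalizations tried, and all of these fell. They were Rpl3, Rpl4, Rpl10a, Rpl12, Rpl13a, Rpl22, Rpl26, Rpl28, Rpl31, Rpl32, Rpl34, Rpl35, Rpl36a, Rps4x, Rps7, Rps15, Rps16, Rps19, Rps21 and Rps26. All but Rpl13a and Rps7 were also called whichever 1 array was left out. How many of the calls over all genes held in the same way was not counted. Rps4x fell by 0.79 with cyclic loess, the smallest value of the normalizations, and by 1.26 with the map learned without the members, and Rpl22 fell by 1.11 with no background correction and by 1.62 with no normalization between arrays.

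**Figure D5:**
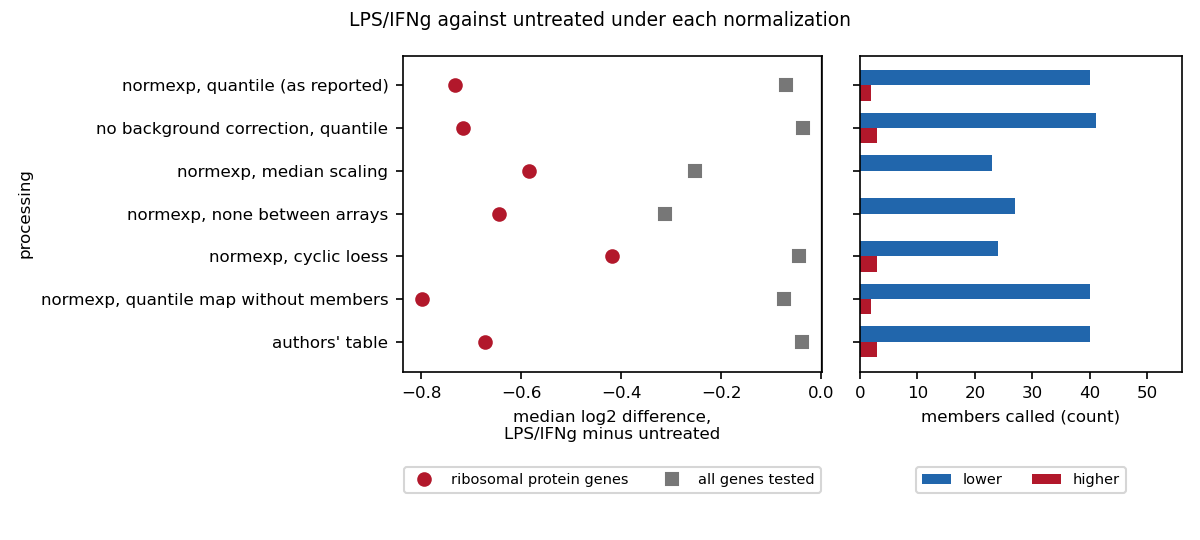
For LPS/IFNg against untreated cells under 7 processings of the same arrays, the left panel gives the median log2 difference of the 56 ribosomal protein genes and of all 8952 genes, and the right panel counts the members called lower and higher. The member median lies below that of all genes in each, from -0.42 with cyclic loess to -0.80 with the quantile map learned without the members, and the count called lower runs from 23 to 41.

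Markers of the cell types that a brain culture can hold were measured beside the members. All 9 microglia markers with a passing probe were bright in sum (log2 of the summed signal 15.30 to 15.61 in untreated cells), and with LPS/IFNg 6 fell and 1 rose (sum 13.85 and 13.94), with Trem2 at -4.02, Cx3cr1 at -5.59 and Aif1 at 1.32. Of the 4 of 8 fibroblast and mural markers tested, 0 passed with LPS/IFNg (limma, and 0 had an unadjusted p under 0.05), the sum was 6.96 to 9.48 in untreated and 7.23 to 7.95 in LPS/IFNg cells, and Col1a2, Col3a1, Lum and Pdgfrb had no passing probe. Of the 4 of 6 astrocyte markers tested, 0 passed (limma, with Slc1a3 at 1.35 under an unadjusted p of 0.05), the sum was 6.50 to 7.37 in untreated and 7.51 to 7.65 in LPS/IFNg cells, and Aqp4 and S100b had no passing probe. Of the 2 of 6 oligodendrocyte markers tested, Mbp fell by 3.61 and Cnp rose by 1.53, with the sum at 10.31 to 10.55 in untreated and 9.67 to 9.88 in LPS/IFNg cells. The 1 tested of 6 neuron markers, Rbfox3, did not pass (-0.21). The part of these cell types in the fall of the ribosomal protein genes was not tested. IL-4 replicate 1, the array with high Rpl24 and Rpl7a, also held the highest sum of fibroblast and mural markers (11.77) and of astrocyte markers (11.23) of all arrays, and the part of this in those values was not tested.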

How the data were processed

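RNA of 11 cultured samples was labelled as biotinylated cRNA and hybridised to Illumina mouse arrays. The deposited scanner table holds, per the file headers, linear unnormalized bead intensities of 45281 probes together with a detection p-value per array. The second table of the authors is in log2; it matched log2 signals quantile-normalized over the arrays, with 1 shift per probe and slide removed, to within 0.0079. Partek is named in the submitters' processing notes; other steps were not given in the sources used here.

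For the results, limma 3.58.1 (R 4.3.3) was used throughout: neqc, with an offset of 16 and background estimated through the detection p-values, then quantile normalization on the linear scale, then log2. The quantile map learned without the members was made on log2 values instead. Probes at a detection p under 0.01 on at least 2 arrays were kept (15937). A single gene symbol was annotated for 34885 probes, 18 had more than 1, and 10378 had no symbol. Of those with a single symbol, 34807 were matched by Entrez identifier and given the current RefSeq symbol, whether or not it differed. The probe with the highest mean stood for a gene. Group means were estimated by lmFit over 8952 genes on all arrays, with eBayes adding 3.52 prior to 7 residual degrees of freedom; the fit was tested on simulated data. Calls took a Benjamini-Hochberg adjusted p under 0.05 over all genes. SE is that of the moderated difference. The number of arrays limits the precision.

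The members and gene lists were chosen with earlier results of these data known. Named genes were, per stimulus, up to 6 largest called rises and falls among members (3 between stimuli), the stalk, related pairs, reference genes, and from other lists up to 2 called rises and 2 called falls or the brightest gene; Rps3a1, Rps15a, Rps24, Rpl41, Rpl24, Rpl7a, Rpl12, Rpl28 and Rpl26, the other members that did not pass, those with disagreeing probes and those of stable calls were named after their values were seen, as were the promoters printed and Slc1a3. Same-numbered replicates of IL-4 and untreated cells deviated together (correlations 0.401, 0.444 and 0.261), which pairs them from the data, not from the labels. Alternatives were other background corrections, normalizations, filters and probe rules, the authors' table, slide or replicate as a block, slide 2 alone, the 2 groups alone, and each array left out. Rps18 was not analysed here. Promoter sequences are those of RefSeq, GRCm38.p6.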

Additional observations from a re-analysis of the deposited data

Results flagged for a closer look

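Rps24 has 3 passing probes, of which the brightest stands for the gene. The dimmer probes, outside the main measurement, rose with LPS/IFNg. Probe ILMN_1214875 read 6.03, 5.91 and 5.85 in untreated cells and 6.80 and 7.16 with LPS/IFNg, a log2 difference of 1.05 (SE 0.16, adjusted p 0.000582 over all passing probes). Probe ILMN_2625060 read 6.30, 6.32 and 6.95 against 7.27 and 7.76, a difference of 0.99 (SE 0.24, adjusted p 0.00709), and it read 7.28, 6.98 and 7.31 with IL-4. The brightest probe, ILMN_3126986, stayed at -0.0048 (adjusted p 0.985). Both dimmer probes lay above every untreated array with LPS/IFNg, and which transcripts of Rps24 each probe binds was not tested.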

How the results depend on the processing

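Against untreated cells, members called with LPS/IFNg numbered 42 as reported, 23 with median scaling, 27 with no normalization between arrays, 27 with cyclic loess and 13 with slide 2 only, and the member median of -0.73 became -0.58, -0.64 and -0.42 under the first 3 of these. LPS/IFNg against IL-4 gave 12 calls with slide 2 only (43 as reported), and LPS/IFNg against TGFb gave 26 with median scaling, 27 with no normalization and 11 with slide 2 only (45 as reported). On slide 2 each stimulus has 1 array, so these counts rest on a spread estimated from the 3 untreated arrays alone (2 residual degrees of freedom), assume that the single arrays vary like them, and give no support of their own; over all genes 1343 were called lower there (15%) with LPS/IFNg against untreated. The cause of the others was not tested. For LPS/IFNg against TGFb, calls over all genes under these normalizations are not given here. IL-4 against untreated gave 1 call with no background correction and 5 in the authors' table (0 as reported), with a median of 0.26 with median scaling and 0.22 with no normalization (0.13 as reported). TGFb against untreated gave 1 call in the authors' table, and IL-4 against TGFb gave 1 with no background correction and 2 in the authors' table. Over all genes the authors' table gave 406 calls with IL-4 (115 as reported) and 289 with TGFb (88 as reported). The lower share of calls was 19.2% with median scaling for IL-4 (33% as reported) and 63.6% for TGFb (37.5% as reported).

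Leaving out 1 array at a time, LPS/IFNg calls ranged from 33 to 46 against untreated (median -0.76 to -0.65), 36 to 45 against IL-4 and 37 to 48 against TGFb; the IL-4 median ranged from 0.10 to 0.16 and the TGFb median from 0.031 to 0.13, with 0 calls each. With replicate number as a block, 43 members were called with LPS/IFNg against untreated and 0 with IL-4 or TGFb. The block moved no other count by over 1.5 times, and only IL-4 and untreated cells met the pairing check. For the fits with an array left out or with the block, calls over all genes are not given here. For LPS/IFNg against untreated cells, each pair of a named gene and a setting was counted, with the named genes of the other lists included. Of these pairs, 54 lost a call, 7 gained one, 9 moved a value and 1026 stayed the same. No called value changed sign. Fewer than 4 arrays per group limit what a missed threshold can show.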
